A study of Mus musculus with 6 samples.

Results

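The Egr, Nr4a and Ier genes are 10 immediate-early genes: Egr1, Egr2, Egr3, Egr4, Nr4a1, Nr4a2, Nr4a3, Ier2, Ier3 and Ier5. They were taken by name, all 10 were measured, and each had 1 probe set among the 20239 genes tested. RNA came from isolated mouse pericytes, the mural cells of capillaries, of the C57BL/6 background. Cells on 3 arrays were controls without added ligand, and cells on 3 arrays had received platelet-derived growth factor BB (PDGF-BB), the main ligand of the receptor tyrosine kinase PDGFR-β, at 100 ng/ml for 5 days. All were sampled at that single time, so the early hours after addition of the ligand were not measured. No genetic alteration is given for either group, and nothing in the labels tells whether arrays of a group stem from separate isolations or cultures. The p-values therefore reflect the spread between these arrays, which may be technical.

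Immediate-early genes are transcribed within minutes of a stimulus without new protein synthesis, because the factors that switch them on, such as serum response factor (SRF) with its ternary complex partners and the cAMP response element binding protein CREB, are already present and are activated by ERK and other kinases. Their RNAs are short-lived, and their levels after a single pulse of growth factor usually return towards baseline. The Egr genes encode zinc finger transcription factors that bind GC-rich sites. The Nr4a genes encode orphan nuclear receptors (Nur77 for Nr4a1, Nurr1 for Nr4a2), whose activity is set largely by how much of the protein is made. The Ier genes are named for their rapid induction and not for descent: Ier2 and Ier5 are related nuclear proteins, and Ier3 is an unrelated regulator of survival and ERK signalling.

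The upstream regions of the Nr4a genes are shown because 2 of the 3 genes of this family passed the test described further on and the third did not. RefSeq (GRCm38.p6) windows were matched for 7 of the 10 genes, and Egr1, Egr3 and Ier2 had none. Each line gives the 250 bases before the transcription start, read 5′ to 3′ on the strand of the gene. Capitals mark TGACG or its reverse complement CGTCA, the half-site of the cAMP response element (CRE) that CREB binds. The windows are Nr4a1 at chr15:101266596-101266845 on the plus strand, Nr4a2 at chr2:57124004-57124253 on the minus strand and Nr4a3 at chr4:48045055-48045304 on the plus strand.
Nr4a1: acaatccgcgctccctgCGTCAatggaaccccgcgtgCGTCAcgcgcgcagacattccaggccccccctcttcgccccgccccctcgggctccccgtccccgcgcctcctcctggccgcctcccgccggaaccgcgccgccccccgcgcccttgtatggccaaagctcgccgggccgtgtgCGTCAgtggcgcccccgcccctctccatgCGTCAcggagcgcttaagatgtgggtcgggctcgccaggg
Nr4a2: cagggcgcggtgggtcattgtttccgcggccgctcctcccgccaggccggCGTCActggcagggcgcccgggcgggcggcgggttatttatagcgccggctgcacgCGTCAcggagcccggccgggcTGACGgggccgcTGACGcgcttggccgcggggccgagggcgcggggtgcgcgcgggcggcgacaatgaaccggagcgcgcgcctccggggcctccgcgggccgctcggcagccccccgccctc
Nr4a3: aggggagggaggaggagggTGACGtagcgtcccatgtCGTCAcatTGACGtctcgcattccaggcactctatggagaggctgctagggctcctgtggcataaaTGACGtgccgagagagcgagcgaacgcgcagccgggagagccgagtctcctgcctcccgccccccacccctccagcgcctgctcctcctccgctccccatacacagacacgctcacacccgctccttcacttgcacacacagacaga

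Each of the 3 Nr4a windows held 4 half-site matches on either strand. At least 1 match was found in 17.8% of all 32851 RefSeq windows of this length and at least 4 in 0.137%. In Nr4a1 the nearest match lay 36 to 40 bases upstream of the start, in Nr4a2 107 to 111 and in Nr4a3 143 to 147. The full element TGACGTCA, of which the half-site is part, was in none of the 3 and in 1.55% of all windows. Nr4a1 also held 1 match to the EGR site GCGGGGGCG, which 2.57% of windows hold. None of the 3 held the site AAAGGTCA that NR4A proteins bind as monomers, found in 1.34% of windows. These matches describe letters, not binding. In all 11 motifs were searched with the expression results known, and the 5 spelled out or named as the CArG box here were kept after the matches were seen. The other 6, with the share of all windows that hold each, were a second EGR site GCGTGGGCG (0.536%), the CCAAT box CCAAT (33.8%), the TATA box TATAAA (12.4%), the SP1 site GGGCGG (32.7%), the AP-1 site TGANTCA with C or G at N (4.46%) and the ETS site CCGGAA (12%). Of these 6 the SP1 site was in all 3 Nr4a windows, in Nr4a1 once overlapping the EGR site, the ETS site was in Nr4a1 and the TATA box in Nr4a2.

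Egr2 is shown for contrast because windows of it hold the other classical element of immediate-early promoters, the CArG box of SRF, and its level did not pass the test. RefSeq gives 5 starts for Egr2, and the third window was picked after its matches were seen. The last 3 windows overlap and share 2 half-sites and this CArG box. The first window holds none of the 5 kept motifs, and the second holds a CArG box of other letters and no half-site. The third is printed, chr10:67537619-67537868 on the plus strand, with 2 half-sites and the CArG box in capitals.
Egr2: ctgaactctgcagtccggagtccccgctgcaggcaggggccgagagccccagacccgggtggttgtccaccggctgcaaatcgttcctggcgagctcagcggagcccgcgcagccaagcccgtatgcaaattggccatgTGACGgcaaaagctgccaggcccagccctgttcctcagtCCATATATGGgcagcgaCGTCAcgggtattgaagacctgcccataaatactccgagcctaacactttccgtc

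The CArG box lay 63 to 72 bases upstream of this start, and 1.47% of all windows hold one. Egr4 held 2 half-sites. Neither Ier3, which rose, nor Ier5 held any of the 5 kept motifs, but both held CCAAT boxes and SP1 sites.

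**Figure D1:**
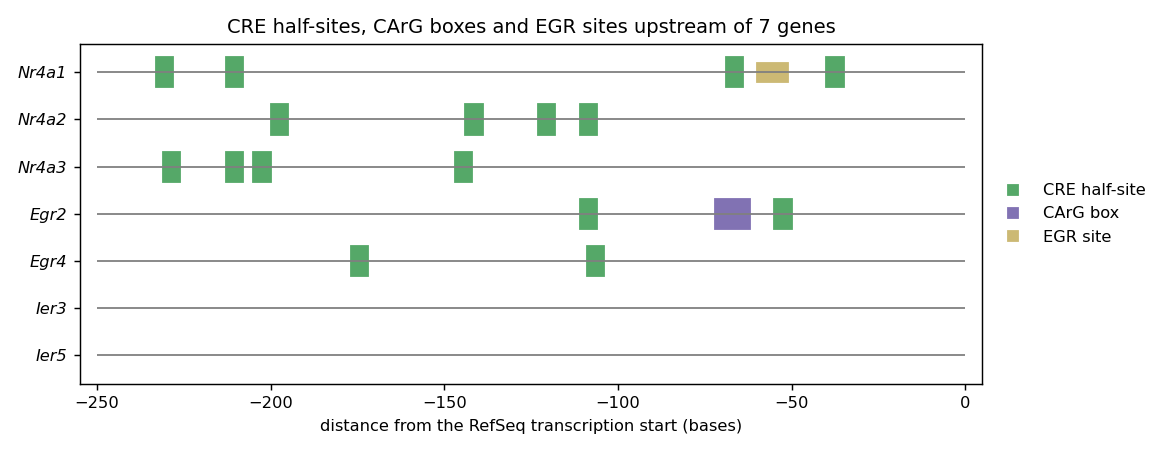
Positions of CRE half-sites, CArG boxes and EGR sites on either strand in the 250 bases upstream of 7 genes, with the distance from the RefSeq start in bases on the horizontal axis (Egr2: the third of its 5 starts, picked after its matches were seen). Nr4a1, Nr4a2 and Nr4a3 each hold 4 CRE half-sites, and Ier3 and Ier5 hold none of the motifs drawn.

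The arrays gave log2 values made by RMA, which equalises the distributions of the arrays. A change is therefore read against all genes, which had a median log2 change of -0.02. Pdgfrb, counted here among the pericyte markers, had a log2 mean of 12.98 in control and 12.85 with PDGF-BB. Rgs5 (7.77 and 7.71) lay just above the background level of 7.38 described with the processing, and Abcc9, Des, Vtn and Higd1b lay under it. Of 12 pericyte markers 8 lay above that level; 1, Anpep, rose 1.83-fold (adjusted p = 0.0028, limma) and 1, Cd248, was 1.26-fold lower (adjusted p = 0.040). Cspg4, which encodes the pericyte proteoglycan NG2, had a log2 change of 0.91 without overlap that did not pass (adjusted p = 0.065, limma). Fibroblast markers were bright too, among them Pdgfra (12.90 and 12.82) and Dcn (13.54 and 13.63), and 2 of 7, Lum and Dpt, rose. The summed linear signal of the 7 was 39235 to 43954 on the control arrays and 44073 to 50823 on the PDGF-BB arrays. In bulk RNA a change in the number of cells of a type and a change in RNA per cell cannot be told apart. Of 10 endothelial markers none passed in limma, and 6, Pecam1 and Kdr among them, lay under background in both groups. At an unadjusted p under 0.05, 1 of the 10 was higher, against 3093 of all 20239 genes. Of 12 macrophage markers 2 rose, Mpeg1 (log2 means of 6.24 in control and 7.64 with PDGF-BB) and Cd14 (8.41 and 9.20). The 2 that fell were Cd68 (9.39 and 8.96) and Lyz2. Ptprc, Adgre1 and Lyz2 lay under background, while 4 of the 12 lay above it in at least 1 group. For all these marker counts, 10.1% of all genes rose and 11.4% fell. The summed macrophage signal was 2081 to 2196 in control and 2182 to 2522 with PDGF-BB, and its part in the results below was not tested.

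After 5 days of PDGF-BB, 3 of the 10 genes differed from control: Nr4a1 and Nr4a3 fell and Ier3 rose. The test was that of limma with group as the only factor. P-values were adjusted over all 20239 genes by Benjamini-Hochberg, with a threshold of 0.05 that 21.5% of all genes passed (10.1% rose and 11.4% fell). With the replicate number added as a block, 3 of the 10 fell, Egr3 among them, and 1 rose, against 2528 and 2213 of all genes. The 10 genes had a median log2 change of 0.02. The 3 PDGF-BB arrays lay wholly above or below the 3 control arrays for 5 of the 10, against 37.6% of all genes: they were higher for 1 (16.9% of all genes) and lower for 4 (20.6%). A count out of 10 is too coarse to be set apart from these shares.

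**Figure D2:**
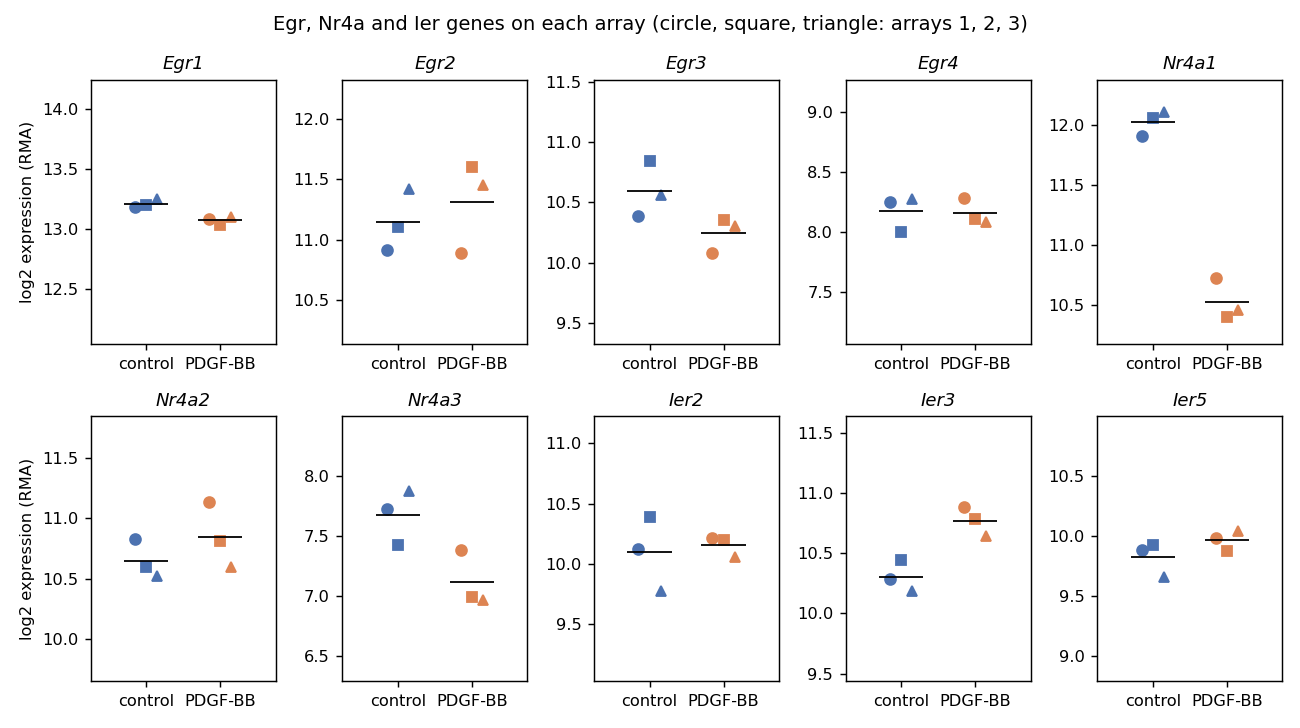
Log2 expression of the 10 genes on the 6 arrays, with control in blue, PDGF-BB in orange, circles, squares and triangles for arrays 1, 2 and 3, and a line at each group mean; every panel spans the same number of log2 units. Nr4a1 shows the widest gap, with control arrays between 11.91 and 12.10 and PDGF-BB arrays between 10.40 and 10.72.

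Nr4a1 (Entrez gene 15370) had log2 values of 11.91, 12.05 and 12.10 on control arrays 1, 2 and 3 and of 10.72, 10.40 and 10.45 on PDGF-BB arrays 1, 2 and 3. The groups were far apart, and PDGF-BB array 1 was the highest of its group. The means were 12.02 ± 0.10 and 10.53 ± 0.17 (SD, n = 3 each), a log2 change of -1.50 (SE 0.10, 95% interval -1.73 to -1.26, adjusted p = 6.0e-04, limma), which is 2.82-fold lower. Only 98 of the 20239 genes had a more negative log2 change. Between arrays of the same number the differences were -1.19, -1.65 and -1.65. Over all 13 alternatives the log2 change stayed between -1.59 and -1.43, with adjusted p from 3.8e-04 to 0.0039.

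Nr4a3 (Entrez gene 18124) had log2 values of 7.72, 7.42 and 7.88 on the control arrays and 7.39, 6.99 and 6.96 on the PDGF-BB arrays. The lowest control array and the highest PDGF-BB array differed by little, and the PDGF-BB mean lay under the background level. The means of 7.67 ± 0.23 and 7.11 ± 0.24 (SD, n = 3 each) gave a log2 change of -0.56 (SE 0.15, 95% interval -0.92 to -0.20, adjusted p = 0.041, limma). As a point estimate this is at least 1.47-fold lower, where "at least" refers to the background and not to the interval, which reaches smaller falls. The call was lost when control array 1 was left out (adjusted p = 0.093), and likewise for control array 3, PDGF-BB array 2 and PDGF-BB array 3 (0.12 each). A filter that dropped the dimmer 50% of genes removed Nr4a3.

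Nr4a2 (Entrez gene 18227), the family member known best for its role in dopaminergic neurons, had log2 values of 10.83, 10.59 and 10.52 in control and 11.13, 10.82 and 10.59 with PDGF-BB. Its groups overlapped. The log2 change was 0.20 (95% interval -0.15 to 0.54, adjusted p = 0.43, limma), and the interval reaches from a small fall to a rise larger than that measured. The differences between arrays of the same number were all positive, 0.30, 0.22 and 0.07. Blocking on the array number gave an SE of 0.07 in place of 0.15, and Nr4a2 did not pass there either (adjusted p = 0.12). Each array also gives the difference between 2 genes of a family, and these differences were compared between the groups with an exact two-sided permutation test, adjusted over the 12 pairs within the families. With 3 arrays against 3 this test cannot go below 0.10. The log2 change of Nr4a1 was 1.69 units more negative than that of Nr4a2 (difference -1.69, exact p = 0.10, adjusted p = 0.24) and 0.94 units more negative than that of Nr4a3 (difference -0.94, exact p = 0.10, adjusted p = 0.24). The changes of Nr4a2 and Nr4a3 differed by 0.76 (exact p = 0.10, adjusted p = 0.24). In all 3 pairs the per-array differences of the groups did not overlap, which gives the smallest p the design allows, and none passed after adjustment. Of single genes 37.6% did not overlap either, and the share over all gene pairs is not given here.

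None of the 4 Egr genes passed in limma without the block. At an unadjusted p under 0.05, 2 of them, Egr1 and Egr3, were lower, and so were 3521 of all 20239 genes. Egr1 (Entrez gene 13653), the prototype of the family, had log2 values of 13.18, 13.20 and 13.25 in control and 13.08, 13.03 and 13.10 with PDGF-BB. The arrays of each group spanned only 0.06 units, and the groups did not overlap. The log2 change was -0.14 (SE 0.05, 95% interval -0.27 to -0.01, adjusted p = 0.12, limma). That interval, which reflects only the spread between these arrays, lies apart from that of Nr4a1. The values of Egr1 lay near the top of the scale, where the highest value of any gene was 14.2. Whether the arrays show the full size of a change at this brightness was not tested.

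Egr3 (Entrez gene 13655), a close relative induced by antigen receptors and neuronal activity, had log2 values of 10.38, 10.84 and 10.56 in control and 10.08, 10.35 and 10.30 with PDGF-BB. Every PDGF-BB array lay below every control array, by a narrow margin. The log2 change was -0.35 (SE 0.13, 95% interval -0.65 to -0.04, adjusted p = 0.11, limma). With the replicate number as a block the same change had an adjusted p of 0.021, and the differences between arrays of the same number were -0.30, -0.49 and -0.25. With that block 3 rather than 2 of the 10 genes fell. Egr3 also passed without control array 1 (adjusted p = 0.046), where Nr4a3 did not.

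Egr2 (Entrez gene 13654), known for its part in Schwann cell myelination, had the widest spread of the 10 genes on the PDGF-BB arrays (SD 0.38), while on the control arrays that of Ier2 was wider (SD 0.31 against 0.26). Its log2 values were 10.91, 11.11 and 11.42 in control and 10.88, 11.60 and 11.45 with PDGF-BB, so both groups reached from about the same low array to a high one. The log2 change of 0.17 had a 95% interval of -0.32 to 0.65 (adjusted p = 0.66, limma), and a moderate change in either direction would go unseen. Egr4 (Entrez gene 13656) ranged from 8.00 to 8.27 in control and from 8.08 to 8.28 with PDGF-BB. Its log2 change of -0.02 (95% interval -0.24 to 0.21, adjusted p = 0.94, limma) turned positive, 0.018, when the quantile normalization was repeated. The 6 Egr pairs differed in their changes by 0.12 to 0.51 units in size, and all had overlapping per-array differences (exact p = 0.20 to 0.60).

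Ier3 (Entrez gene 15937), also called IEX-1, had log2 values of 10.28, 10.45 and 10.19 in control and 10.89, 10.79 and 10.64 with PDGF-BB. All PDGF-BB arrays lay above all control arrays. The means of 10.31 ± 0.13 and 10.77 ± 0.12 (SD, n = 3 each) gave a log2 change of 0.46 (SE 0.09, 95% interval 0.24 to 0.68, adjusted p = 0.013, limma), a 1.38-fold rise. Differences between arrays of the same number were 0.60, 0.34 and 0.45. The call held in all 13 alternatives, with adjusted p up to 0.048 without PDGF-BB array 1.

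Ier2 (Entrez gene 15936) ranged from 9.77 to 10.39 in control and from 10.06 to 10.22 with PDGF-BB, so its PDGF-BB arrays lay inside the control range. Its log2 change of 0.06 (95% interval -0.29 to 0.41, adjusted p = 0.84, limma) was -0.10 without control array 3. Ier5 (Entrez gene 15939), a regulator of heat shock factor, ranged from 9.65 to 9.92 in control and from 9.88 to 10.04 with PDGF-BB, with overlap. Its log2 change was 0.15 (95% interval -0.06 to 0.36, adjusted p = 0.32, limma). Ier3 changed by 0.40 units more than Ier2 and by 0.32 units more than Ier5 (differences -0.40 for Ier2 minus Ier3 and 0.32 for Ier3 minus Ier5). In the permutation test both had an exact p of 0.10 and an adjusted p of 0.24. The per-array differences did not overlap in either pair, and the share over all gene pairs is not given here. Ier5l, a relative of Ier2 and Ier5 outside the 10, changed by 0.06 on the log2 scale (adjusted p = 0.60, limma), and it was picked once this value was known.

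**Figure D3:**
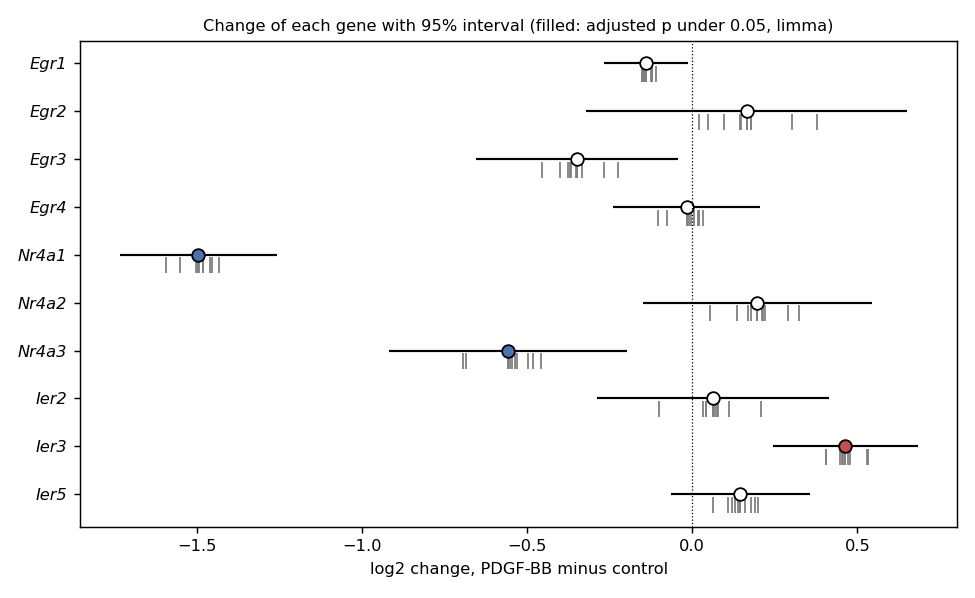
Log2 change (PDGF-BB minus control) of the 10 genes with the 95% interval of limma's fit; filled points passed the adjusted threshold (blue fell, red rose), and grey ticks under each point are the changes in up to 13 alternative settings. The interval of Nr4a1, -1.73 to -1.26, lies apart from those of the other 9 genes.

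The 10 genes were then set beside the other parts of the same pathway. These lists were chosen with earlier results of these data known, so their counts describe the data and are not independent support. Among 39 other immediate-early genes, 15 fell and 4 rose, with a median log2 change of -0.30, against 11.4% falling, 10.1% rising and a median of -0.02 over all genes. In the 10 genes described here 2 fell and 1 rose. Sik1, a kinase that restrains CREB's coactivators, was 2.08-fold lower (log2 values of 10.90, 11.11 and 11.15 against 9.93, 10.04 and 10.02). Gadd45b, a stress-response gene, was 2.01-fold lower. Fos and Fosb, subunits of the AP-1 transcription factor, were 2.28-fold and 2.84-fold lower, and Jun, their partner, had a log2 change of 0.10 (adjusted p = 0.54, limma). Dusp1, a phosphatase of MAP kinases, Zfp36, which speeds the decay of short-lived RNAs, and Tnfaip3, an NF-κB inhibitor, were 1.70-fold, 1.60-fold and 1.76-fold lower. Fosl1, the AP-1 subunit whose transcription follows prolonged ERK activity, was 2.05-fold higher.

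Feedback genes and ETS factors that follow ERK activity over longer times went the other way. Of 12 such genes 9 rose and none fell in limma, with a median log2 change of 0.73, where 10.1% of all genes rose and 11.4% fell. At an unadjusted p under 0.05, 10 went upwards and 1, Phlda1, downwards, against 3093 and 3521 of all 20239 genes. With the replicate number as a block 11 rose and 1 fell, Phlda1, named after its value was seen (log2 change -0.28, adjusted p = 0.030). Dusp6, the cytoplasmic ERK phosphatase, had log2 values of 9.99, 9.93 and 9.98 in control and 11.43, 11.42 and 11.32 with PDGF-BB. Etv5, Etv4 and Etv1, ETS factors of the PEA3 group, rose 2.83-fold, 2.57-fold and 2.51-fold, and Spry4 and Spred1, inhibitors of the pathway, 3.19-fold and 1.83-fold. On the same arrays on which Dusp6 was higher, Ier3 was higher too, Nr4a1 and Nr4a3 were lower, and the other 7 of the 10 genes did not pass the test.

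Of the kinases and transcription factors upstream of these genes, 19 of 23 listed were measured. Of the 19, 4 rose and 5 fell (median log2 change -0.08), where 10.1% of all genes rose and 11.4% fell. Srf fell, with log2 values of 11.55, 11.53 and 11.44 in control and 10.93, 10.95 and 11.15 with PDGF-BB (1.41-fold lower). Its actin-controlled coactivators Mrtfa and Mrtfb were 1.69-fold and 1.34-fold lower, and leaving out PDGF-BB array 2 ended the call of Mrtfb (adjusted p = 0.052, limma). Elk3, an ETS partner of SRF, rose 1.28-fold. Crtc3, a coactivator of CREB, was 1.33-fold lower, and Atf1, a relative of CREB, was 1.27-fold higher. The count that rose was 2 without control array 2, control array 3 or PDGF-BB array 1. Of 6 smooth muscle markers 4 fell (Acta2, Tagln, Cnn1 and Lmod1) and 1, Smtn, rose, where 11.4% of all genes fell and 10.1% rose. Their summed linear signal was 18302 to 22118 on control arrays and 8152 to 13491 on PDGF-BB arrays, and the part of this in the result was not tested.

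Co-regulators give the next layer. Of 12 listed, 10 were measured, 1 rose and 2 fell (median log2 change -0.03), where 10.1% of all genes rose and 11.4% fell. A count out of 10 is too coarse to be set apart from these shares. Nab1, a corepressor that binds EGR1 and EGR2, rose 1.61-fold, from log2 values of 11.27, 11.55 and 11.39 to 12.08, 12.06 and 12.12 without overlap (adjusted p = 0.0023, limma). Nab2, the related corepressor that is itself an EGR target, had a log2 change of -0.04 (adjusted p = 0.85, limma). Rxrb, a heterodimer partner of nuclear receptors, and Kdm1a, a histone demethylase of corepressor complexes, were 1.18-fold and 1.27-fold lower. The Rxrb call was lost with an intensity trend in the variance (adjusted p = 0.051) and without any 1 of 5 arrays, all but control array 3 (0.052 to 0.074), and the Kdm1a call without control array 2 or any 1 of the PDGF-BB arrays (0.056 to 0.073).

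Genes described as EGR1 targets went both ways. Of 13 measured of 16 listed, 3 fell and 1 rose (median log2 change -0.04), where 11.4% of all genes fell and 10.1% rose. Pdgfa, a PDGF ligand, F3, tissue factor, and Thbs1, thrombospondin, were 1.41-fold, 1.73-fold and 1.37-fold lower, and Tgfb1 was 1.48-fold higher. F3 did not pass when any of 4 arrays was left out, control 1, control 3, PDGF-BB 1 and PDGF-BB 2 (adjusted p = 0.060 to 0.085). Thbs1 did not pass when any of 3 arrays was left out, control 2, control 3 and PDGF-BB 1 (0.073 to 0.098), or with a repeated quantile normalization (0.052). Hpse, heparanase, had a log2 change of 1.42 that did not pass (adjusted p = 0.079) but did with the replicate number as a block (6.8e-04), as did Vegfa (log2 change 0.32, adjusted p = 0.12, and 0.048 with the block). The count that rose was therefore 3 with the block, and also 3 without control array 2. With control array 3 or PDGF-BB array 1 left out 1 fell.

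Handling stress also induces immediate-early genes, so heat-shock and stress genes were read from the same arrays. Of 8 measured of 10 listed, 2 rose and none fell in limma, where 10.1% of all genes rose and 11.4% fell. At an unadjusted p under 0.05, 3 went upwards and 0 downwards, against 3093 and 3521 of all 20239 genes. The median log2 change of the list was 0.05. Hspd1, the mitochondrial chaperone, rose 1.58-fold and Hsph1 1.36-fold, and the Hsph1 call was lost when any 1 array other than control array 2 was left out (adjusted p = 0.058 to 0.12). Hmox1 and Dnajb1 had log2 changes of -0.07 and 0.08 (adjusted p = 0.77 and 0.66, limma). Hspa1a had a log2 change of 0.001 (adjusted p = 0.997, limma), with control arrays from 10.26 to 11.16. The summed linear signal of the list was 28687 to 32900 in control and 31237 to 32945 with PDGF-BB, and these ranges overlapped. Hspa8, the brightest gene of the list (log2 means of 14.18 and 14.08), weighs most in that sum. The part of handling in the results was not tested.

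**Figure D4:**
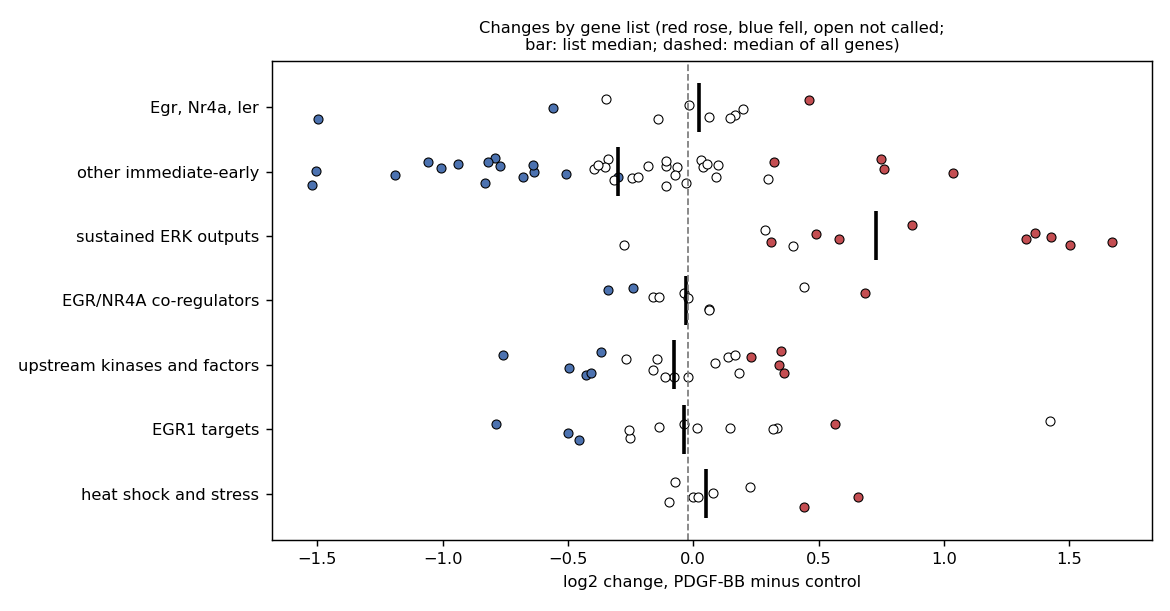
Log2 change (PDGF-BB minus control) of each measured gene by list, red where it rose, blue where it fell and open where it did not pass limma's adjusted threshold; bars are list medians and the dashed line is the median of all genes, -0.02. The 12 ERK outputs have a median of 0.73, the 39 other immediate-early genes one of -0.30, and the 10 Egr, Nr4a and Ier genes one of 0.02. The lists were chosen with earlier results of these data known.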

How the data were processed

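Total RNA from 6 samples, 3 control and 3 PDGF-BB, was measured on 1-colour arrays. The log2 values deposited by the authors are RMA output, per the submitters' processing notes; its software and filters: not given in the sources used here. Values ran from 4.08 to 14.2. GEO's platform annotation gives 1 gene symbol for 20239 of 21225 probe sets and none for 986.

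Groups came from the sample titles. All named genes were fitted with limma 3.58.1 (R 4.3.3; lmFit, eBayes, group as the only factor, two-sided). A fold is 2 raised to the log2 change. The background level, 7.38, is the 90th percentile of the mean log2 values of 20 measured lymphocyte, mast cell and erythroid markers, taken as absent. Where 1 group mean lay under it the fold is "at least", which does not count the spread between arrays. No read depth exists for arrays, and 3 per group limit the precision. The model was also run on simulated arrays with independent noise and no pairing, and the outcome is not given here. Changes as small as that of Nr4a3 were not simulated. Sequences are RefSeq's, and only the 250 bases before each start were used.

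The named genes are the 10 members, and of each other list up to 6 with the smallest p, plus Nab1, Nab2, Srf, Fos, Fosb, Jun, Dusp1 and Dusp6; cell type markers, and Phlda1 and Ier5l, were named after their values were seen. Of 198 listed genes 183 were measured and the others are not analysed here. Members, lists and motifs were chosen with earlier results of these data known. The arrays are numbered 1 to 3 in both groups, and same-numbered arrays deviated from their group means together (r = 0.25, 0.32 and 0.25). Deviations from a mean of 3 arrays are tied to one another, so these r are not independent. The numbers may thus pair the arrays, but the labels do not say so. The main fit and the permutation tests did not use the numbers, and the replicate block was an alternative. The other 12 were repeated quantile normalization, median centring, dropping the dimmer 50% of genes, unnamed probe sets included, an intensity trend, array weights and leaving out each array.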

Additional observations from a re-analysis of the deposited data

How the results depend on the processing

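Of 128 combinations of 1 of the 10 genes with an alternative, 116 kept direction and side of the threshold; 4 lost the call (all Nr4a3), 2 gained it (both Egr3) and 6 changed sign. The count of the 10 genes that fell was 1 without the dimmer 50% of genes, since that filter removed Nr4a3, and 1 to 2 when an array was left out; it was 3 with the replicate block. Other calls among the 10 did not change with the block. Leaving out an array gave 1514 to 2188 genes that fell in all (1516 and 1514 without PDGF-BB array 1 and 2, against 2305). Egr4 changed sign under repeated quantile normalization (0.018) and ranged from -0.10 to 0.032 when an array was left out. The same ranges were -0.10 to 0.21 for Ier2, -0.033 to 0.14 for Dnajb1, -0.21 to 0.052 for Hmox1, -0.11 to 0.053 for Nab2 and -0.16 to 0.012 for Ier2 minus Ier5; the cause was not tested. The number of co-regulators that fell was 0 without control array 2 or any 1 PDGF-BB array and 1 without control array 1 or with an intensity trend, and 2 rose without control array 1. Of heat-shock genes 1 rose without control array 3 or any 1 PDGF-BB array, and 1 ERK output fell with the replicate block or without PDGF-BB array 3. Alternatives for single genes outside the 10 were added after seeing the data. No detection calls were used. Nr4a3 lay near background, so its change may be understated or may be noise.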

Other observations

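Genes outside the 10 with the most similar pattern were looked up for 1 member of each family, by Pearson correlation over the 6 arrays among the 1633 genes whose values spanned at least 1 log2 unit. For Nr4a1 they were Slc24a3, a sodium, calcium and potassium exchanger (r = 0.999), Gdpd2, a glycerophosphodiester phosphodiesterase (0.998), Phyhd1 (0.998) and Pdk4, the kinase that inhibits pyruvate dehydrogenase (0.998). Their log2 changes were -1.70, -3.52, -2.36 and -1.58. For Egr1, whose own values spanned only 0.21 units, they were Tmeff1, Tifa, Lrp6, a Wnt co-receptor, and Vgll4, a partner of TEAD factors (r = 0.996 to 0.997), with log2 changes of -0.89 to -0.67. The arrays fall into 2 groups, so these correlations mostly repeat the difference between the groups. For Ier2, whose groups overlapped, they were Zfp575, Car5b, a mitochondrial carbonic anhydrase, Slc1a3, a glutamate transporter, and Rtl6, at r = 0.957, 0.951, 0.927 and 0.918. None of these 4 passed in limma (adjusted p = 0.65 to 0.96). For each member the genes named are the 4 highest of 1633 correlations over only 6 arrays. Whether unrelated genes would reach such values was not tested.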
